A study of Homo sapiens with 4 samples.

Results

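Ribosomal protein and translation factor genes were examined in RNA immunoprecipitation sequencing (RIP-seq) of AKT1 from breast cancer cells. A gene was taken when its symbol was RPL, RPS, RPLP, EEF, EIF or PABPC followed by a digit and a peak of the AKT1 E17K list overlapped its span in the genome. The S6 kinase genes (RPS6K) and the repressors EIF4EBP1 and EIF4EBP2 were left out. The rule found 46 of the 1708 protein-coding genes with a peak, and 146 of the 4838 peaks. Of these 46 genes, 30 carried ribosomal protein symbols, 3 were elongation factors, 11 carried initiation factor symbols and 2 were poly(A) binding proteins.

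MDA-MB-231, a triple-negative breast cancer cell line, was transfected with a plasmid for Flag-tagged AKT1, either the E17K mutant or the wild type (WT). For each plasmid there was 1 library of RNA recovered with anti-Flag antibody (immunoprecipitate, IP) and 1 library of input RNA, 4 libraries in all, each made after removal of rRNA. The purpose was to find RNAs, lncRNAs above all, that bind the mutant protein. The tagged protein was expressed from a plasmid in cells that keep their own AKT1, and the experiment was sequenced once, so none of the values below could be compared between replicates. Each plasmid has its own deposited peak list, in which every peak comes with its immunoprecipitate reads and with the reads of a control. From the sample labels the control was read as the input library. A control IgG is what the series text mentions, and the lists themselves do not settle it.

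The ribosome is built from rRNA and ribosomal proteins, named RPL in the large subunit and RPS in the small subunit. Initiation factors bring the mRNA and the initiator tRNA to the small subunit, elongation factors deliver aminoacyl-tRNA and move the ribosome on, and cytoplasmic poly(A) binding protein covers the mRNA tail. Many of these mRNAs begin with a C in a run of pyrimidines, the 5′ terminal oligopyrimidine (TOP) motif, through which mTORC1 controls their translation. AKT1 is a kinase upstream of mTORC1, and E17K is an activating mutation in its lipid-binding domain. These mRNAs are also among the most abundant of a growing cell.

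The starts of some member genes are shown because this motif is a feature that the choice by symbol did not use. A start position was found in the RefSeq promoter table of GRCh38.p14 for 27 of the 46 genes, and 22 of these 27 held a run of this kind near it. A C followed by at least 4 bases that are each C or T, within 10 bases of the start on the strand of the gene, was found in 17 of 18 ribosomal protein genes (94.4%), 1 of 2 elongation factor genes and 4 of 7 initiation factor genes (57.1%). The run began exactly at the start in 15 of the 18 ribosomal protein genes (83.3%). Of all 15843 protein-coding genes in the table, 41.1% held such a run within 10 bases, and 6.24% held it exactly at the start. The windows below run 5′ to 3′ from 10 bases before the start to 20 bases from it, and capitals mark the run of pyrimidines. RPS12, RPS18 and RPL36 were ribosomal protein genes with the run at the start, and RPL4 had it further in. RPL27 was the ribosomal protein gene without it within 10 bases. Its window holds such a run just past that limit, left in small letters, so its place here depends on the limit chosen. EEF1A1 with and EEF1G without a run were the elongation factors in the table, and EIF3F and EIF4G2 were the initiation factor genes with the lowest ratio and with most reads. EIF4G2 has a pair of starts in the table, of which only the downstream one held a run, and it is counted among the genes with a run.
RPS12, chr6:132814559-132814588, plus strand: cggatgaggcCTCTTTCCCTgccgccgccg
RPS18, chr6:33272065-33272094, plus strand: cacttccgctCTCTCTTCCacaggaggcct
RPL36, chr19:5690285-5690314, plus strand: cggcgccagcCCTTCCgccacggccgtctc
RPL4, chr15:66504836-66504865, minus strand: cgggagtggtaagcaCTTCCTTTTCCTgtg
RPL27, chr17:42998409-42998438, plus strand: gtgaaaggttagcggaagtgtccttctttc
EEF1A1, chr6:73521013-73521042, minus strand: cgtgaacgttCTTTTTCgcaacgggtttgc
EEF1G, chr11:62573872-62573901, minus strand: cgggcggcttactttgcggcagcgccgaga
EIF3F, chr11:7987327-7987356, plus strand: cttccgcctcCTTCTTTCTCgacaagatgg
EIF4G2, downstream start, chr11:10807977-10808006, minus strand: tgtcggaagcaCTTCCCTaacttgcgcctg
EIF4G2, upstream start, chr11:10808907-10808936, minus strand: acgccttagcgccagcagtgagtcggagct

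The member genes held 37574 immunoprecipitate reads and 19099 control reads, which was 7.76% and 7.69% of the reads of the E17K list in 3.02% of its peaks. They were therefore well covered, with a median of 542 immunoprecipitate and 260 control reads per gene, against 124 and 59 over all 1708 protein-coding genes. The ratio of a gene is its immunoprecipitate reads over its control reads, summed over its peaks. It was not scaled for library size, because the lists give no library totals, and a ratio above 1 therefore says nothing by itself. Each ratio was read against the median of the 1708 genes, 2.14, which had quartiles of 1.91 and 2.47. Values in brackets after a ratio are 95% Wilson intervals, which take in the error of counting reads and nothing else. All 146 member peaks had more immunoprecipitate than control reads, between 12 and 1594 reads, and ratios between 1.19 and 4, with a median of 2.07 against 2.18 over all peaks.

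Taken as classes, the genes had pooled ratios between 1.91 and 2.08, and how these compared with the list depended on AKT1, the gene on the plasmids. The 30 ribosomal protein genes had 19485 immunoprecipitate and 10042 control reads, a pooled ratio of 1.94 (interval 1.89 to 1.99). The 3 elongation factors had a pooled ratio of 1.91 (1.83 to 1.99) from 5862 and 3070 reads. The 11 initiation factor genes had 2.08 (2 to 2.16) from 8505 and 4093 reads. The interval of the initiation factors met neither that of the ribosomal protein genes nor that of the elongation factors, but it did once EIF4G2 was left out (2.06, 1.96 to 2.18). The 2 poly(A) binding protein genes had a pooled ratio of 1.97 (1.86 to 2.08) from 3722 and 1894 reads. All 46 genes together gave 1.97 (1.93 to 2), and all 1708 protein-coding genes gave 1.95 (1.94 to 1.96). AKT1 alone lowered the value of the list, and without it the 1707 other genes gave 2.06 (2.05 to 2.07). The intervals of the ribosomal protein genes, of the elongation factors and of all members lay below that value, whereas those of the initiation factors and of the poly(A) binding proteins held it. No p-value between classes is given, because each class is a sum over the same pair of libraries.

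Gene by gene, the members sat slightly low. Their median ratio was 2.02, and 15 genes lay above the median of the list and 31 below. They ranged from 1.19 to 2.90, and all genes from 0.9 to 9. These ranges are not alike, because all genes are far more numerous and include 335 with under 20 control reads, none of them a member. The medians were 2.02 for the ribosomal protein genes, 1.86 for the elongation factors and 2.12 for the initiation factors. The interval lay wholly below 2.14 in 15 of the 46 genes, when it did so in 8.49% of all protein-coding genes with a peak. It lay wholly above in 1 member, RPL36, when it did so in 6.44% of all genes. The 15 genes were 9 of the 30 ribosomal protein genes, EEF1D and EEF1G, EIF3F and EIF3I, and both poly(A) binding proteins. RPS10 and the read-through gene RPS10-NUDT3 share the same peaks and are counted as 2 of them.

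**Figure D1:**
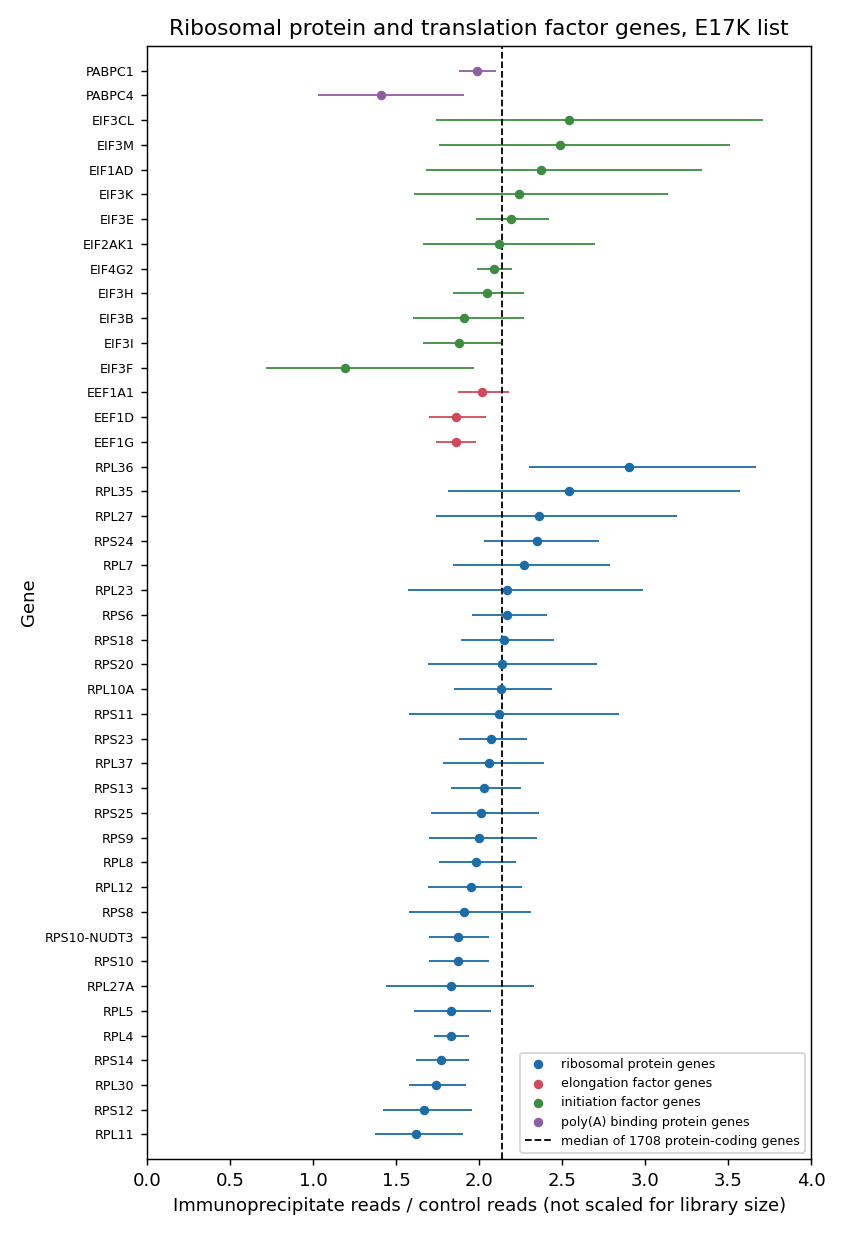
Ratio of immunoprecipitate to control reads (horizontal axis, not scaled for library size) for 44 of the 46 member genes of the E17K list, coloured by class. Points are ratios of summed reads, bars are 95% Wilson intervals for counting error only, and the dashed line is the median of 1708 genes, 2.14; most points sit between 1.6 and 2.5, with EIF3F at 1.19 and RPL36 at 2.90 at the ends.

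The number of reads moved with this position. A ratio above the median was more common in genes with few reads. The Spearman correlation of ratio and control reads was -0.382 over the 1708 genes and -0.437 over the 46 members. All these reads came from the same pair of libraries. Control reads are also the divisor of the ratio, so counting error alone pushes such a correlation to the negative side, and its sign is no finding by itself. Non-member genes with under 20 control reads, a bin without any member, had a median ratio of 2.80. Those with at least 500 control reads had a median of 2 (quartiles 1.88 and 2.11), and the 16 members in that bin had a median of 1.93 (range 1.71 to 2.19). Against genes with control reads within a factor of 2 of their own, 24 members lay above the median and 22 below, with a median quotient of 1.01 (range 0.532 to 1.41). Among genes with at least 200 control reads, the interval lay below 2.14 in 13 of 28 members (46.4%) and in 72 of all 265 genes (27.2%), and the medians were 1.98 and 2.02. Against genes of the same chromosome and strand label, 17 members lay above the median and 29 below, with a median quotient of 0.953.

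**Figure D2:**
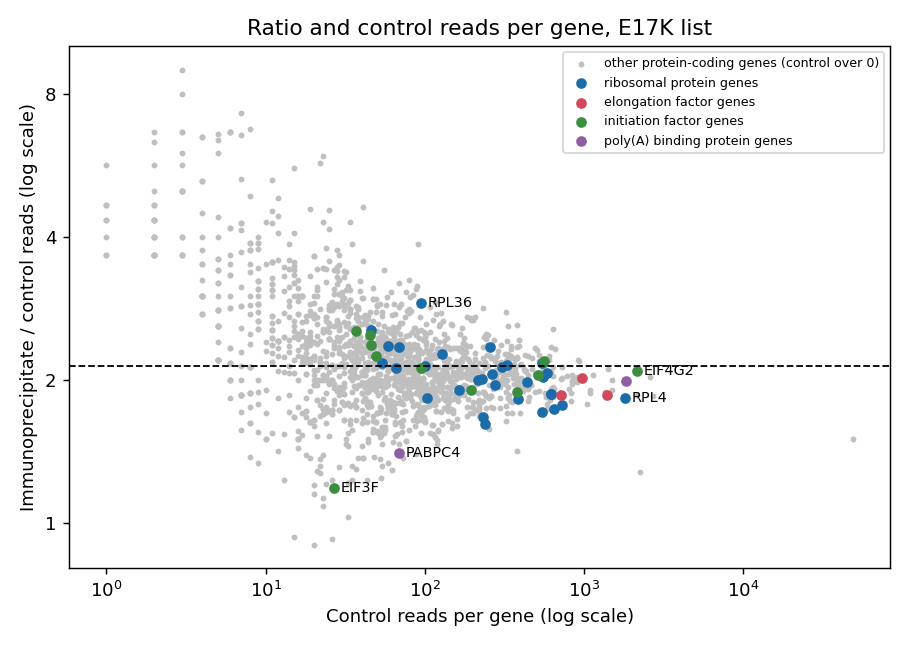
Ratio of immunoprecipitate to control reads against control reads per gene in the E17K list, both on log axes, with members coloured by class, other protein-coding genes in grey and the median of 2.14 dashed. The grey cloud narrows and sinks as control reads grow, no member lies under 20 control reads, and the members follow the cloud apart from EIF3F and PABPC4 below it and RPL36 at its upper edge.

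Each gene's reads were then compared with those of the remaining protein-coding genes with Fisher's exact test (two-sided), adjusted by Benjamini-Hochberg over 1708 genes. It sets 2 libraries against each other, not 2 conditions. More immunoprecipitate reads than the remainder were called in 1 of 46 members, RPL36, against 2.81% of all genes. Fewer were called in 0 members, against 0.176% of all genes. At an unadjusted p of 0.05 or less, the same test gave 5 members with more (10.9%, against 12.4% of all genes) and 6 with fewer (13%, against 1.81% of all genes). These shares are not alike, because members had a median of 260 control reads and all genes 59. At the same ratio, a test on counts calls a gene with more reads more easily. The test was not repeated among genes of like depth. A ratio at least 1.5 times the median was reached by 0 members, against 9.07% of all genes. A ratio at most 1/1.5 of the median was found in 2 members, EIF3F and PABPC4, against 2.46% of all genes.

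The reference for that test included AKT1, whose 73374 immunoprecipitate and 48883 control reads had a ratio of 1.5 (interval 1.48 to 1.52). Without it the remaining genes had a pooled ratio of 2.06, and the calls among the members turned over. RPL36 was no longer called (Fisher's exact test with Benjamini-Hochberg adjustment, adjusted p = 0.12). Instead, 3 members were called with fewer immunoprecipitate reads by the same Fisher's exact test, among them RPL4 (adjusted p = 0.00808) and RPL30 (adjusted p = 0.0461), beside 0.469% of all 1707 genes. Here too the shares are of genes with unlike numbers of reads. The deviations of the members from their pooled share were 2.17 times the binomial variance, and those of the other genes without AKT1 1.89 times. Intervals and p-values from counting error are thus narrower than the spread between genes.

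Among the large subunit genes, 14 genes with 34 peaks had a pooled ratio of 1.91 (1.84 to 1.98). RPL4 held the most reads of any ribosomal protein gene, 3287 in the immunoprecipitate and 1796 in the control, a ratio of 1.83 (1.73 to 1.94). Its reads came from 3 peaks on chromosome 15 between 66499441 and 66501540, with ratios of 2.01, 1.79 and 1.80. RPL30 had 1118 and 643 reads, a ratio of 1.74 (1.58 to 1.92). RPL8 had 866 and 438 reads, a ratio of 1.98. RPL5 and RPL11, which form the 5S particle of the large subunit and bind MDM2 when ribosome assembly fails, were both low. RPL5 had 699 and 383 reads, a ratio of 1.83 (1.61 to 2.07). All its peaks also lie in the span of DIPK1A, so its reads cannot be told apart from that gene's here. Its peaks with ratios of 1.68 and 2.46 also overlap the small nucleolar RNA genes SNORD21 and SNORA66, respectively. RPL11 had 386 and 239 reads, and its ratio of 1.62 (1.37 to 1.9) was the lowest of the 30 ribosomal protein genes.

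RPL36 stood at the other end. Its 1 peak, on chromosome 19 from 5691401 to 5692000, had 273 immunoprecipitate and 94 control reads, a ratio of 2.90 (2.3 to 3.67; Fisher's exact test, Benjamini-Hochberg adjusted p = 0.0296). Of the 600 bases of the peak, 475 lay in the span of RPL36 and 167 in that of LONP1, a mitochondrial protease gene on the opposite strand, so the count is uncertain for RPL36. The strand label of the peak was minus, opposite to RPL36 and equal to LONP1. Labels were opposite to the gene in 95.9% of pairs of peak and protein-coding gene in the list. Which gene the reads came from was not tested. RPL35 and RPL27 came next among the large subunit genes. RPL35 had 117 and 46 reads, a ratio of 2.54 (1.81 to 3.57), and RPL27 had 139 and 59 reads, a ratio of 2.36 (1.74 to 3.19). Both intervals held the median of the list, and the only peak of RPL35 also overlaps the span of WDR38.

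The small subunit genes had a pooled ratio of 1.97 (1.91 to 2.04) from 16 genes and 39 peaks, and their median of 2.02 equalled that of the large subunit genes. RPS14, which lies in the interval deleted in 5q- syndrome, had 1278 and 722 reads, a ratio of 1.77 (1.62 to 1.94). RPS23, of the decoding centre, had 1205 and 582 reads, a ratio of 2.07. RPS6, the ribosomal protein that S6 kinase phosphorylates downstream of AKT and mTORC1, had 1173 and 540 reads, and its ratio of 2.17 (1.96 to 2.41) was close to the median of the list. RPS10 had 1166 and 623 reads, a ratio of 1.87, and RPS13 had 1114 and 549 reads, a ratio of 2.03. The RPS13 peak with 279 and 107 reads, a ratio of 2.61, also overlaps the small nucleolar RNA gene SNORD14A. The largest RPS13 peak, with 813 and 434 reads, had a ratio of 1.87. RPS12 had 387 and 232 reads, and its ratio of 1.67 (1.42 to 1.96) was the lowest of the small subunit genes. RPS24 had 606 and 258 reads, and its ratio of 2.35 (2.03 to 2.72) was at the upper end of the small subunit genes.

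EEF1D and EEF1G, subunits of the complex that recharges eEF1A with GTP, lay below the median. EEF1G had 2578 and 1387 reads, a ratio of 1.86 (1.74 to 1.98), and EEF1D had 1329 and 714 reads, a ratio of 1.86 (1.7 to 2.04). EEF1A1, which carries aminoacyl-tRNA to the ribosome, had 1955 and 969 reads in 3 peaks of 205 bp, and its ratio was 2.02 (1.87 to 2.18). Its 3 peaks differed little, from 1.93 to 2.07. The other 11 genes of the class in the table, EEF2 among them, had no peak in the list.

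The initiation factors were led by EIF4G2, a relative of eIF4G that supports initiation without the cap-binding eIF4E. It had more reads than any other member, 4493 in the immunoprecipitate and 2150 in the control, a ratio of 2.09 (1.99 to 2.2) over 10 peaks. These covered chromosome 11 from 10797146 to 10806985, with ratios from 1.74 to 3.40. The other initiation factor genes with many reads were subunits of eIF3, the scaffold on the small subunit that receives S6 kinase and mTORC1, and 8 of them had a pooled ratio of 2.05 (1.94 to 2.17). EIF3E had 1221 and 558 reads over 11 peaks, a ratio of 2.19, EIF3H had 1048 and 512 reads, a ratio of 2.05, and EIF3I had 717 and 381 reads, a ratio of 1.88 (1.66 to 2.13). EIF3B, a core subunit, had 370 and 194 reads, a ratio of 1.91. The intervals of EIF4G2, EIF3E, EIF3H, EIF3I and EIF3B overlapped each other.

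The remaining initiation factor genes had few reads, and both ends of the class lay among them. EIF3CL had 94 and 37 reads, a ratio of 2.54 (1.74 to 3.71). It has a near-identical copy, EIF3C, without a peak in the list, so reads may be split between them. EIF3M had 112 and 45 reads, a ratio of 2.49, EIF1AD, named for its eIF1A-like domain, had 109 and 46, a ratio of 2.37, and EIF3K had 110 and 49, a ratio of 2.24. EIF2AK1, the haem-regulated kinase of eIF2 and not itself an initiation factor, had 199 and 94 reads, a ratio of 2.12. EIF3F, a subunit of eIF3 that binds mTORC1, was at the lower end with 32 and 27 reads in a peak on chromosome 11 from 7995411 to 7995820. Its ratio of 1.19 (0.714 to 1.97) was the 8th lowest of all 1708 genes, and with so few reads its interval was wide, though it did not meet those of EIF3E (1.98 to 2.42) and EIF4G2.

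Of the poly(A) binding protein genes, PABPC1, the main cytoplasmic form and itself a TOP mRNA, had 3625 and 1825 reads over 11 peaks, second only to EIF4G2 among the members. Its ratio was 1.99 (1.88 to 2.1), and its peaks lay between 1.78 and 2.37. PABPC4, an inducible form, had 97 and 69 reads in 1 peak on chromosome 1 from 39568621 to 39569040, and its ratio of 1.41 (1.03 to 1.91) was the second lowest of the members. The peak also lies in the span of PABPC4-AS1, so with strand ignored its reads cannot be told apart from that transcript's. When set against genes of like depth or of the same chromosome and strand label, EIF3F stayed at most 1/1.5 of the reference and PABPC4 did not.

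Peaks of the same gene share their libraries and their transcript and are not replicates, but they show how even the ratio was along a gene. Of the 32 members with 2 or more peaks, the intervals of the lowest and the highest peak lay apart in 2. RPS10 and RPS10-NUDT3, which share their peaks, are both among the 32. Over all protein-coding genes, 942 had more than 1 peak, but the same count was not made for them. Whether 2 of 32 is few or many is therefore not known. In EEF1G, the peak from 62566821 to 62567025 on chromosome 11 had 574 and 384 reads, a ratio of 1.49 (1.31 to 1.7). It also overlaps the microRNA gene MIR6747. The next peak, from 62567231 to 62567640, had 346 and 137 reads, a ratio of 2.53 (2.07 to 3.08), and the highest peak had 77 and 27 reads, a ratio of 2.85 (1.85 to 4.41). In RPS9, the peak from 54202001 to 54202400 on chromosome 19 had 175 and 129 reads, a ratio of 1.36 (1.08 to 1.7), and the peak from 54206201 to 54206800 had 257 and 87 reads, a ratio of 2.95 (2.32 to 3.76). The summed ratio of RPS9, 2, was therefore made of a low and a high part. In RPS14 the 2 large peaks, with 580 and 547 immunoprecipitate reads, had ratios of 1.74 and 1.68, and the higher ratios were in peaks of few reads. The RefSeq table used holds gene spans without exons, so it was not known whether a peak lay in an exon, an intron or an untranslated region.

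**Figure D3:**
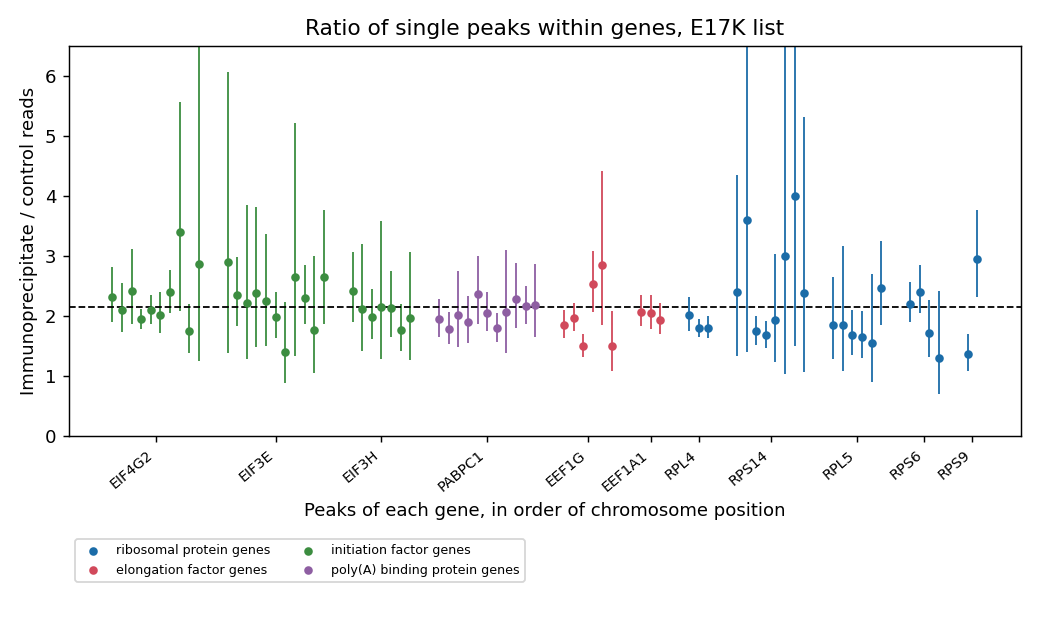
Ratio of immunoprecipitate to control reads (vertical axis) for every peak of 11 member genes of the E17K list, in order of position along the chromosome, with 95% Wilson intervals cut off at 6.5 and the gene median of 2.14 dashed. EEF1A1, RPL4 and PABPC1 were even along the gene, whereas EEF1G and RPS9 each had a low and a high peak whose intervals did not meet.

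The lists carry a strand label for each peak. Where the promoter table gave the strand of a member, the label was the opposite strand in 79 of 79 pairs of peak and gene, against 95.9% of the 3534 pairs of all protein-coding genes. Strand was therefore ignored when peaks were assigned to genes. Coverage of the genome was uneven: 30 of the 90 ribosomal protein genes of the RefSeq table had a peak, and 31 of the 71 with a known strand lay on a chromosome strand without any peak in the list, read through the opposite label. Of 13 ribosomal protein genes on strands with at least 100 peaks, 10 had a peak, as did 6 of 11 initiation factor genes. Strands also differed in the smallest peak listed, with 11 immunoprecipitate reads on chromosomes 5, 7, 8 and 10 and 545 on chromosome 15, where RPL4 lies. Genes of these families without a peak were not analysed here, and the lack of a peak is no measure of their RNA.

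The ratios were also split by the pyrimidine run at the start of the gene, with no test. The median ratio was 2.02 in the 22 members with a run within 10 bases and 1.91 in the 5 without. Over all protein-coding genes with a peak and a start in the table, the medians were 2.11 with and 2.12 without a run. The genes printed above show the same spread. RPS12 and RPL36, both with the run at the start, had ratios of 1.67 and 2.90, and RPL27, without a run within 10 bases, had 2.36.

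The WT list was much shorter, with 808 peaks in 274 protein-coding genes, of which 11 genes with 23 peaks were ribosomal protein or initiation factor genes. It held no elongation factor and no poly(A) binding protein gene. Its median ratio was 0.949, against which its members were read, since the ratio of each list depends on the unknown depth of its own libraries. RPL10A had 645 and 624 reads, a ratio of 1.03, RPS18 had 543 and 519, a ratio of 1.05, RPS12 had 309 and 285, a ratio of 1.08, and RPL9 had 304 and 291, a ratio of 1.04. EIF4E, the cap-binding protein, had 162 and 175 reads, a ratio of 0.926, and EIF1AX, which helps the small subunit scan for the start codon, had 121 and 141, a ratio of 0.858. RPL6 had 131 and 133 reads, a ratio of 0.985, RPL39 had 32 and 37, a ratio of 0.865, and RPS4X had 72 and 52, a ratio of 1.38 (0.971 to 1.97). For these 9 genes the intervals held 1, and in all but RPS4X they held 0.949 as well.

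RPS29 and RPL36A-HNRNPH2 need caution in the WT list. A peak on chromosome 14 from 49586901 to 49587120 lay inside the span of RPS29 and had 5628 immunoprecipitate and 3909 control reads, a ratio of 1.44 (1.38 to 1.5). It held 70.4% of all immunoprecipitate reads of the members and 11% of those of the whole WT list. It began 22 bases past the end of RN7SL1, the abundant RNA of the signal recognition particle, and its label was the strand of RPS29, unlike most peaks. Whether these reads come from RPS29 was not tested. The peaks of RPL36A-HNRNPH2, a read-through gene, had 44 and 35 reads, a ratio of 1.26, carried the label of that gene's strand and lay in the span of GLA. Without RPS29, the 10 other members had 2363 and 2292 reads, a pooled ratio of 1.03 (0.973 to 1.09), with a median of 1.04 and a range from 0.858 to 1.38. Of these 10, 7 lay above the median of the WT list and 3 below. The 263 non-member genes of that list had a pooled ratio of 0.92 (0.908 to 0.933), below the interval of the members. Of the 10, those with most reads were RPL10A, RPS18 and RPS12, all on chromosome 6 with a minus label. There, 9 peaks of other genes, with the same limits in both lists, had a median WT ratio of 1.01, ranging from 0.759 to 1.35. Members of the WT list were not set against genes of like strand or depth. With RPS29, the pooled ratio of the ribosomal protein genes was 1.31 (1.27 to 1.35).

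**Figure D4:**
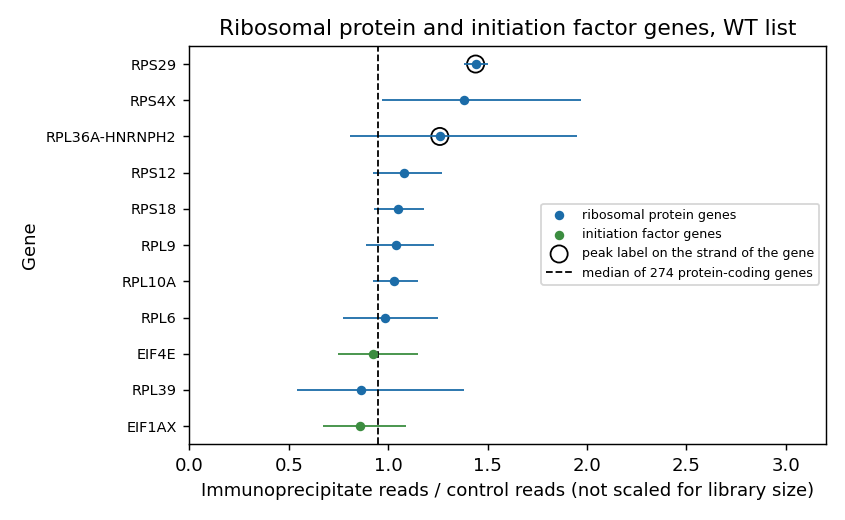
Ratio of immunoprecipitate to control reads (horizontal axis, not scaled for library size) of the 11 member genes in the WT list, with 95% Wilson intervals and the median of 274 genes, 0.949, dashed. Rings mark the genes whose peaks carry the label of the gene's own strand, RPS29 and RPL36A-HNRNPH2, and the narrow interval of RPS29 at 1.44 reflects its 5628 reads.

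Ribosomal protein genes were also among the few places where both plasmids could be read over the same bases. Of 26 peaks with the same limits in both lists, 3 lay in members, all on chromosome 6 with a minus label. RPS18 had 704 and 327 reads with E17K, a ratio of 2.15, and 543 and 519 with WT, a ratio of 1.05, which gave a quotient of 2.06 (1.72 to 2.46). RPL10A had 644 and 303 reads with E17K, a ratio of 2.13, and 484 and 492 in the same peak with WT, a ratio of 0.984, a quotient of 2.16 (1.79 to 2.6). RPS12 had 387 and 232 reads with E17K and 309 and 285 with WT, a quotient of 1.54 (1.22 to 1.93). The 9 other shared peaks of that chromosome strand had a median quotient of 2.05 and a range from 1.51 to 2.38, so RPS18 and RPL10A lay near their middle and RPS12 near their lower end. The quotient of all 26 peaks had a median of 2, and with 1 library per condition and no totals a difference in depth and a difference in binding cannot be told apart.

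**Figure D5:**
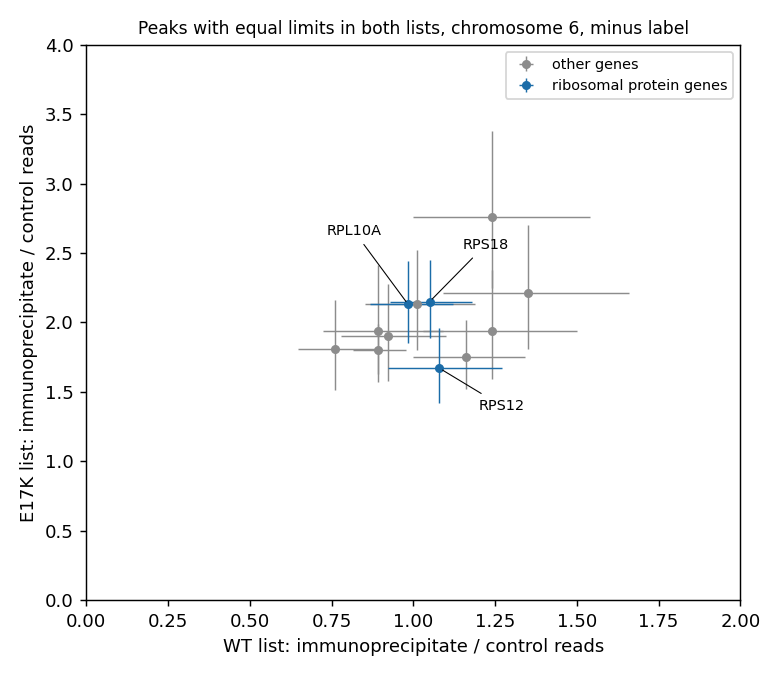
Ratio of immunoprecipitate to control reads in the E17K list (vertical axis) against the WT list (horizontal axis) for 12 peaks with the same limits in both lists, on chromosome 6 with a minus label; bars are 95% Wilson intervals. All 12 points lie higher on the E17K axis than on the WT axis, and the 3 ribosomal protein genes lie among the other 9.

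Other genes of translation outside the symbol rule ranged from 1.56 in GSPT1 to 6.57 in DHX29. The upper end rested on DHX29 and PDCD4, with 7 control reads each, fewer than any member had. The next highest was EIF4EBP1 at 2.36. Of 30 such genes, 10 had a peak in the E17K list, with a pooled ratio of 2 from 6310 and 3158 reads and a median of 2.09. They included RACK1, a protein of the small subunit, with 2855 and 1496 reads and a ratio of 1.91, the release factor ETF1 with 1764 and 875 reads and a ratio of 2.02, and FAU, which encodes a small subunit protein, with 690 and 318 reads and a ratio of 2.17. Peaks of RACK1 also overlap the small nucleolar RNA genes SNORD95 and SNORD96A. The peaks of DHX29 also overlap the span of CCNO-DT, and those of PDCD4 that of BBIP1. Which gene those reads came from was not tested. The eIF4E repressors EIF4EBP1 and EIF4EBP2 had ratios of 2.36 (316 and 134 reads) and 2 (182 and 91 reads). DHX29, a helicase of the small subunit, was the gene of these called by Fisher's exact test with Benjamini-Hochberg adjustment (46 and 7 reads, ratio 6.57, interval 3.03 to 14.3, adjusted p = 0.0415), and without AKT1 its adjusted p was 0.073. With AKT1 in the reference, 1 of the 10 was thus called with more immunoprecipitate reads, against 2.81% of all genes. PDCD4, an inhibitor of the helicase eIF4A, had 30 and 7 reads, a ratio of 4.29. With DHX29 it made 2 of 10 genes at 1.5 times the median or more, against 9.07% of all genes. Both had under 20 control reads, where the median ratio of 335 genes was already 2.80. In the WT list 1 of the 30 had a peak, RPS6KA3, with 36 and 31 reads. Of 8 mesenchymal markers of MDA-MB-231, 6 had a peak in the E17K list, with a pooled ratio of 1.94, and of 8 luminal or epithelial markers 0 had one. The WT list, from the same cell line, held a peak of neither set, so the lists give no check of the cell type.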

How the data were processed

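RIP-seq peaks of 4 libraries, 1 per condition, were used. The authors deposited 1 peak list per plasmid with whole-read counts per peak for the immunoprecipitate and a control, not normalized, and with the authors' adjusted p-values per peak, which served here only as an alternative filter. The lists' log odds, unadjusted p-values, reads per kilobase and false discovery rates were not used. The submitters' processing notes name Bowtie2 2.2.8 and hg18, but 97.3% of the E17K peaks and 96.9% of the WT peaks lay in protein-coding spans of RefSeq GRCh38.p14 as listed, and 48.6% and 43.8% after moving them by 1000000 bp, so GRCh38 was used. Member peaks fell from 146 to 2 in the E17K list and from 23 to 0 in the WT list on moving. The peak caller is not given in the sources used here.

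Peaks were assigned to every protein-coding span they overlapped by at least 1 bp, whatever the strand, and counts were summed per gene. Control counts of 0 to 3 were set to 3. Depth is known only inside peaks. Wilson intervals (95%) and two-sided Fisher's exact tests were calculated with scipy 1.17.1 (Python 3.11.15, numpy 2.4.6, pandas 2.3.3), with Benjamini-Hochberg adjustment over 1708 genes at 0.05. The Fisher code was run on simulated counts with binomial error only and with larger changes than the members show. That run checks the code and does not cover the wider spread between genes in these data. Figures were drawn with matplotlib 3.10.9. Named were all elongation factors and poly(A) binding proteins, the 10 ribosomal protein and 10 initiation factor genes with most reads, the 3 highest and 3 lowest ratios of each with at least 20 control reads, members called by Fisher's exact test or in the WT list, and AKT1; other genes were named after their values were seen. Of the members, 2 are counted in the totals but not reported singly here. The members and lists were chosen with earlier results of these data known. Alternatives were another overlap of peak and span (at least 50% of the peak), peaks in no other span, an authors' adjusted p-value of at most 0.001, at least 20 control reads, strand, members without kinases and read-through genes, a binomial test, the list without AKT1, a fold of 2, a pseudocount of 1 and other reference medians. The opposite strand label, classes without their deepest gene and the pooled ratio of the list without AKT1 were added after seeing the data.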

Additional observations from a re-analysis of the deposited data

How the results depend on the processing

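Of 46 alternative values, 34 kept their direction and size. Several of these could not have moved. In all 4 classes, the authors' adjusted p-value and the limit of 20 control reads removed no peak. The overlap of at least 50% removed peaks only from the ribosomal protein genes among the classes. Leaving out kinases and read-through genes changed the reads of the initiation factor genes only. The count of 34 is therefore no measure of how stable the class ratios are. The pooled ratios of the 4 classes stayed within their intervals under each alternative that gave a value, including those without RPL4 (1.96, ribosomal protein genes) and without EIF4G2 (2.06, initiation factor genes). No member had a peak with the strand label of the gene, so that alternative gave no class value, and poly(A) binding protein genes had no strand. For all protein-coding genes, the pooled ratio of 1.95 became 1.94 for peaks in no other span, 1.94 with at least 20 control reads, 2.07 with the label of the gene's strand, and, both chosen after seeing the data, 1.92 with the opposite label and 2.06 without AKT1. Members with more immunoprecipitate reads by Fisher's exact test went from 1 to 0 with a binomial test against the median and to 0 without AKT1. Members with fewer went from 0 to 6 with the binomial test (among them EEF1G, RPL11, RPL30, RPL4 and RPS14, beside 22 of all genes or 1.29%) and to 3 without AKT1. The reference ratio was higher in both alternatives by construction. Members also had more reads per gene than the list, so their share of calls and that of all genes are not alike. Members at or under 1/1.5 of the median went from 2 to 0 at a fold of 2, and to 1 against genes of the same chromosome and strand label and to 1 against genes of like depth. No paired analysis was possible because each condition had 1 library. With unknown library totals, no ratio says whether a transcript was enriched, and counts under about 50 control reads left wide intervals.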
